A study of Mus musculus with 58 samples.

Results

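Transcripts of 9 receptors by which blood-forming cells home to the bone marrow and hold on to it were examined in single cells. The receptor genes Cxcr4, Itga4, Itga6, Itgb1, Itgb2, Itgal, Cd44, Selplg and Cd69 were chosen by name, and all 9 were among the 23152 gene symbols of the deposited table. These genes, and the lists set beside them below, were chosen with earlier results of these data known. The cells were sorted from the bone marrow of wild type C57BL/6 mice. Of 58 cells, 34 were long-term haematopoietic stem cells by surface phenotype (LT-HSC; lineage-negative, Kit and Sca-1 positive, Flt3 and CD34 negative). The other 24 were common myeloid progenitors (CMP; lineage-negative, Kit and CD34 positive, Sca-1 and CD16/32 negative). The labels gave no age, sex or animal for any cell, so that each gate was 1 sample with no replicate and no test was made.

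Stem and progenitor cells reach the marrow through a series of contacts. Selectins on marrow vessels slow the cells by binding sugar-bearing ligands such as PSGL-1, chemokine from the niche acts on CXCR4, and integrins then switch to a state that holds vascular and matrix ligands. CD44 binds hyaluronan and CD69 keeps cells in tissue by drawing down a sphingosine 1-phosphate receptor, and loss of such anchors is known to release stem cells into the blood.

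The depth was 45022 to 860553 counts per LT-HSC (median 236774) and 88329 to 706184 per CMP (median 290977). Pooled over cells, levels are given as CPM, the summed counts divided by the pool's total and scaled. Each interval is an exact Poisson 95% interval for counting error only, and takes every count as an independent molecule. Stem cell markers were higher in LT-HSC and myeloid progenitor markers in CMP, with 11 of 12 and 10 of 10 measured markers at least 2-fold apart in these directions. Of 9 mature neutrophil markers, which neither gate should hold, S100a8 was counted in every cell, 34 LT-HSC and 24 CMP. Others were counted in a larger share of LT-HSC than of CMP. S100a9 had a count in 34 LT-HSC and 18 CMP, and Camp and Lcn2 each in 33 and 16. The summed neutrophil list made up 3.38 of 10000 counts for the median LT-HSC (2.19 to 6.06) and 5.30 for the median CMP (0.030 to 59.4), and its part in the receptor levels was not tested. The number of cells with at least 10 counts of a gene is given beside the number with any count. Xist, the RNA of female cells, had a count in 22 of 24 CMP and in 0 of 34 LT-HSC, and only CMP 1 and 2 lacked it. No label gives the sex of the donors. If Xist is read as sex, sex and gate were nearly the same split and, outside those 2 cells, cannot be told apart.

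Sequences upstream of the start were at hand for 4 of the 9 receptor genes, in RefSeq's table for GRCm38.p6. They are shown as the stretch next to the start of 4 genes that were all 2-fold or more higher in CMP. Each line holds the 250 bases before the annotated start, on the gene's strand. They lie at chr1:128592300-128592549 on the minus strand for Cxcr4, at chr2:79255176-79255425 on the plus strand for Itga4, at chr8:128685404-128685653 on the plus strand for Itgb1 and at chr2:102901666-102901915 on the minus strand for Cd44. Capitals mark matches on either strand to any of 6 motifs.
Cxcr4: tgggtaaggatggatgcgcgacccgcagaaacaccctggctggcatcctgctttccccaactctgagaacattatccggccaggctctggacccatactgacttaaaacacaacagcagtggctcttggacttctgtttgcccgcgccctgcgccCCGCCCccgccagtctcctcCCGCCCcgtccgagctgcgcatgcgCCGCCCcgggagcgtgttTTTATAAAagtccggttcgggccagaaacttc
Itga4: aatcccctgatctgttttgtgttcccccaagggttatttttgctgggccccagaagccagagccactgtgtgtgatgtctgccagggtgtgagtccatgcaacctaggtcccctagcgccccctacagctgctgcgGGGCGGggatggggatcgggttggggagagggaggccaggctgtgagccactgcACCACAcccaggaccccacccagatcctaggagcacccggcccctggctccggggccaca
Itgb1: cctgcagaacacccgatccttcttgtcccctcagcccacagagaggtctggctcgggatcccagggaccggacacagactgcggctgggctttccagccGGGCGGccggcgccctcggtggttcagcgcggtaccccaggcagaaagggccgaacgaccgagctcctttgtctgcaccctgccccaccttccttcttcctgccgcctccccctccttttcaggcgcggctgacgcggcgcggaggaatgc
Cd44: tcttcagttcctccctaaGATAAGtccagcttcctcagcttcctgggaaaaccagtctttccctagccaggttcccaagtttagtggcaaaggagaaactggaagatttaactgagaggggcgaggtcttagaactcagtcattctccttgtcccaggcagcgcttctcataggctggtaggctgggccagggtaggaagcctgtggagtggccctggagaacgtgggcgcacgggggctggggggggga
The motifs searched were GGGCGG of the Sp1 and Klf family, TGTGGT of the Runx family, CGGAAG of the Ets family, GATAAG of the Gata family, CACGTG of the Myc and Usf family and TATAAA, the TATA box. GGGCGG was found in 3 places before Cxcr4 and in 1 place each before Itga4 and Itgb1, and 32.7% of 32851 upstream sequences of the same length hold it. Cxcr4 had 2 overlapping matches to TATAAA, which 12.4% of all such sequences hold. TGTGGT occurred once before Itga4 (4614 of 32851 sequences) and GATAAG once before Cd44 (6.55% of all). CGGAAG and CACGTG, in 13.6% and 6.02% of all, had no match in these 4 windows. The GC content was 61.2% for Cxcr4, 64.0% for Itga4, 68.0% for Itgb1 and 56.4% for Cd44. A match is a run of letters and shows no binding.

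Most of the receptor transcripts were higher in CMP. Of the 9 genes, 7 were higher in CMP by 2-fold or more, 0 were higher in LT-HSC by as much, and Selplg and Itgb2 lay between. Over all 10937 genes with at least 20 counts, 28.1% passed 2-fold toward CMP and 22.7% toward LT-HSC. The median log2 ratio of LT-HSC to CMP was −2.29 over the 9 genes and −0.13 over all genes with at least 20 counts. Summed over the 9 genes, receptor counts made up 1.02 of 10000 for the median LT-HSC (0.048 to 9.45) and 6.39 for the median CMP (3.78 to 14.9). The gates overlapped in this sum. At least 3 of the 9 genes reached 10 counts in 7 LT-HSC and in 19 CMP. No LT-HSC held at least 10 counts of more than 4 of the 9 genes, and 12 of 34 held that many of none. Every CMP held at least 10 counts of 1 gene or more, and 15 of 24 did so for 4 or more.

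**Figure D1:**
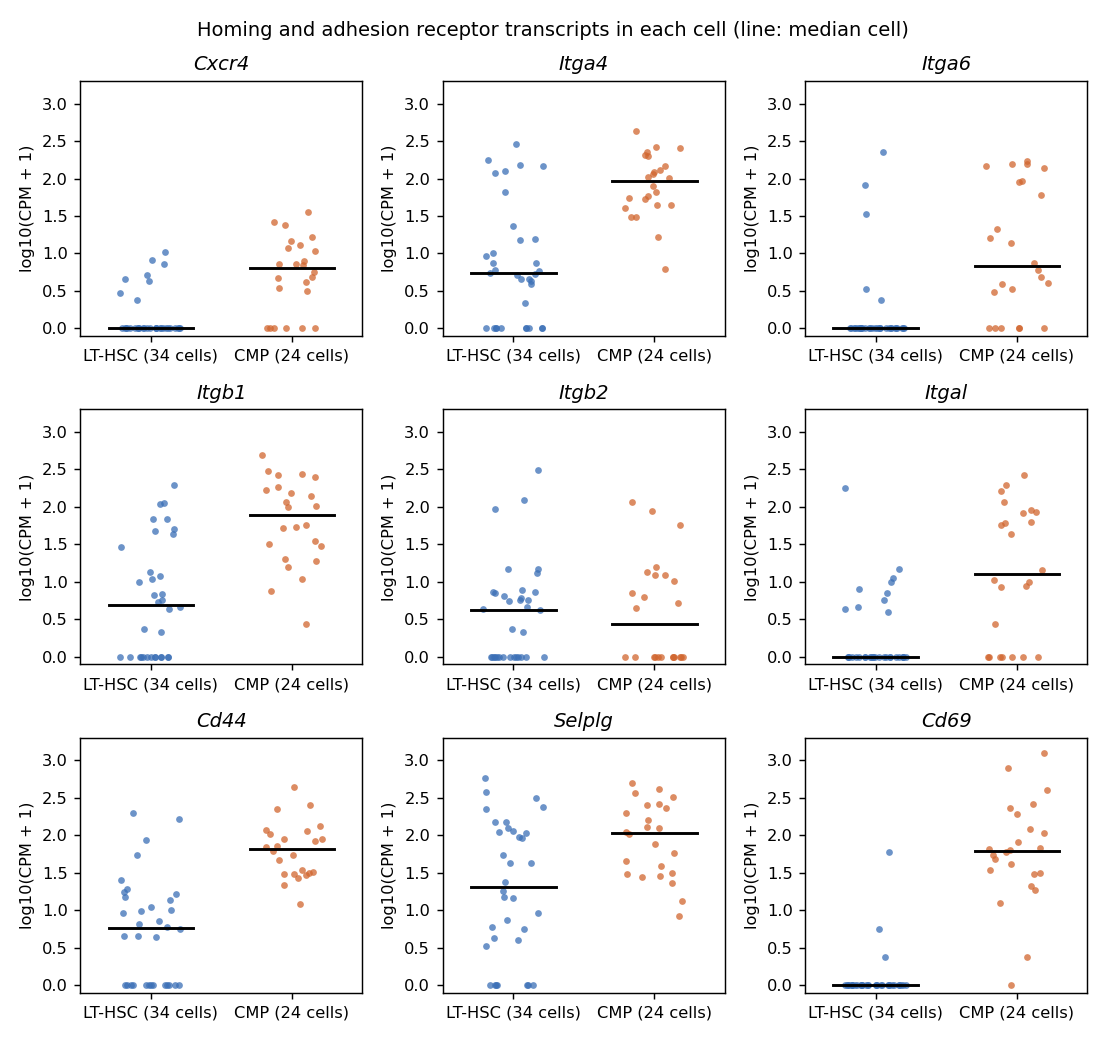
Level of each receptor transcript in single cells, as log10(CPM + 1), for 34 LT-HSC and 24 CMP; each point is 1 cell and each line the median cell. Cd69 is near 0 in LT-HSC (3 of 34 cells with a count), and Itgb2 overlaps widely between the gates.

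Cxcr4 encodes the receptor for the niche chemokine CXCL12 (mm10 chromosome 1, 128588199 to 128592293, minus strand). Its counts were few. Single LT-HSC ranged from 0 to 9.60 CPM with a median of 0, and single CMP from 0 to 34.2 CPM with a median of 5.38. Pooled, Cxcr4 was at 1.11 CPM among LT-HSC (interval 0.55 to 1.98, 11 counts) and 8.92 among CMP (interval 6.85 to 11.4, 63 counts). It was 7.76-fold higher in CMP (interval 4.21 to 16.9). The 8 LT-HSC with a count held 1 or 2 each, while 18 of 24 CMP held a count. By CPM, 8 of these CMP lay above every LT-HSC. Among them CMP 11 and 13 held only 1 count each, at depths of 92154 and 100475 counts. Only CMP 1, with 18 counts, reached 10. Cells with at least 97978 counts were also thinned to that depth in 1 random draw. The pools then held 6 and 14 counts, so the value depends on the draw. The log2 ratio moved from −2.96 to −1.61 (interval −3.34 to −0.20), and 5 of 30 LT-HSC and 8 of 22 CMP kept a count.

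Itga4 and Itgb1 encode the 2 chains of VLA-4, the integrin that binds VCAM-1 and fibronectin. Single LT-HSC ranged from 0 to 287 CPM of Itga4 (median 4.42), and single CMP from 5.16 to 432 (median 90.6). Pooled, Itga4 (chromosome 2, 79255426 to 79333123, plus strand) was at 35.6 CPM among LT-HSC (interval 32.0 to 39.6) and 122 among CMP (interval 114 to 130), 3.42-fold more in CMP. All 24 CMP had a count, and 17 had at least 10, against 24 and 7 of 34 LT-HSC. The gates overlapped, with 6 LT-HSC above the median CMP. Cerkl lies across Itga4 on the opposite strand and held 60 counts in all. Whether counting used strand was not given in the sources used here, so reads of the pair cannot be told apart where they overlap.

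Itgb1 (chromosome 8, 128685654 to 128733200, plus strand) ranged from 0 to 196 CPM in single LT-HSC (median 3.96) and from 1.72 to 488 in single CMP (median 77.2). Its pooled level was 21.3 CPM among LT-HSC (interval 18.6 to 24.4) and 115 among CMP (interval 107 to 123), 5.38-fold higher in CMP. Of LT-HSC, 3 lay above the median CMP, and 5 CMP lay above every LT-HSC. Pooled, CMP 1 and 2 were at 28.7 CPM of Itgb1 (interval 20.2 to 39.6) and CMP 3 to 24 at 134. Of these 2 cells CMP 2 was the lowest of all 24 CMP, at 1.72 CPM, and CMP 1 stood at 51.0. With these 2 cells as the CMP pool, its log2 ratio moved from −2.43 to −0.44 (interval −0.94 to 0.12) and that of Itga4 from −1.77 to −1.04. Both chains were at 10 counts or more in the same cell in 13 of 24 CMP and in 3 of 34 LT-HSC. Among CMP, 4 cells had only Itga4 and 4 only Itgb1 at that level. Itgb7, the other known partner of the alpha 4 chain, had 8 counts in LT-HSC and 53 in CMP, and 1 CMP held 60.4% of its CMP counts.

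Itga6 encodes the alpha 6 chain, which with beta 1 or beta 4 forms laminin receptors (chromosome 2, 71745616 to 71858416, plus strand). Few stem cells held a count of it. Single LT-HSC ranged from 0 to 225 CPM with a median of 0, and single CMP from 0 to 169 with a median of 5.76. Pooled, it was at 11.3 CPM among LT-HSC (interval 9.29 to 13.6) and 51.7 among CMP (interval 46.5 to 57.3), 4.57-fold higher in CMP. The LT-HSC counts were in few cells: 5 of 34 cells had any, and LT-HSC 16 held 67.9% of them and the highest CPM of all 58 cells. The gates overlapped, with 3 LT-HSC above the median CMP. Without that cell the log2 ratio moved from −2.19 to −3.77. Of CMP, 7 of 24 had at least 10 counts, and 6 of these 7 also had at least 10 of Itgb1, whereas the 2 such LT-HSC did not.

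Itgal and Itgb2 encode the 2 chains of LFA-1, the leukocyte integrin that binds ICAM-1, and they differed from each other in pattern. For Itgal (chromosome 7, 127296260 to 127335138, plus strand), single LT-HSC ranged from 0 to 179 CPM (median 0) and single CMP from 0 to 263 (median 11.6). Its pooled level was 3.62 CPM among LT-HSC (interval 2.54 to 5.02) and 65.0 among CMP (interval 59.2 to 71.2), 17.7-fold higher in CMP. At least 10 Itgal counts were held by 10 of 24 CMP and by 1 of 34 LT-HSC, and 2 LT-HSC lay above the median CMP. The cell with at least 10 was LT-HSC 31, with 58.3% of the gate's Itgal counts, and leaving it out moved the log2 ratio from −4.15 to −5.36. With cells thinned it was −3.02, which is 8.09-fold (interval 5.28 to 13.4), and by the mean over cells of their CPM −2.90.

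For Itgb2 (chromosome 10, 77530252 to 77565708, plus strand), the beta chain that all leukocyte integrins of its family share, single LT-HSC ranged from 0 to 312 CPM (median 3.25) and single CMP from 0 to 116 (median 1.72). The gates overlapped fully. Pooled levels were 16.1 CPM among LT-HSC (interval 13.7 to 18.8) and 18.7 among CMP (interval 15.6 to 22.2), and the interval of the log2 ratio, −0.56 to 0.13, held 0. A few cells carried the counts in each gate, since 3 cells held 83.1% of the LT-HSC counts and 3 cells 82.6% of the CMP counts. The log2 ratio was −0.93 without LT-HSC 9 and 0.38 without CMP 19. It also turned sign with cells thinned, to 0.52, and by the mean over cells of their CPM, to 0.39. Of 10 CMP with at least 10 Itgal counts, 2 also had at least 10 of Itgb2. No LT-HSC had both. Other alpha chains of the family were scarce: Itgam had 16 counts in LT-HSC and 31 in CMP, Itgax 0 and 1, and Itgad had none.

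**Figure D2:**
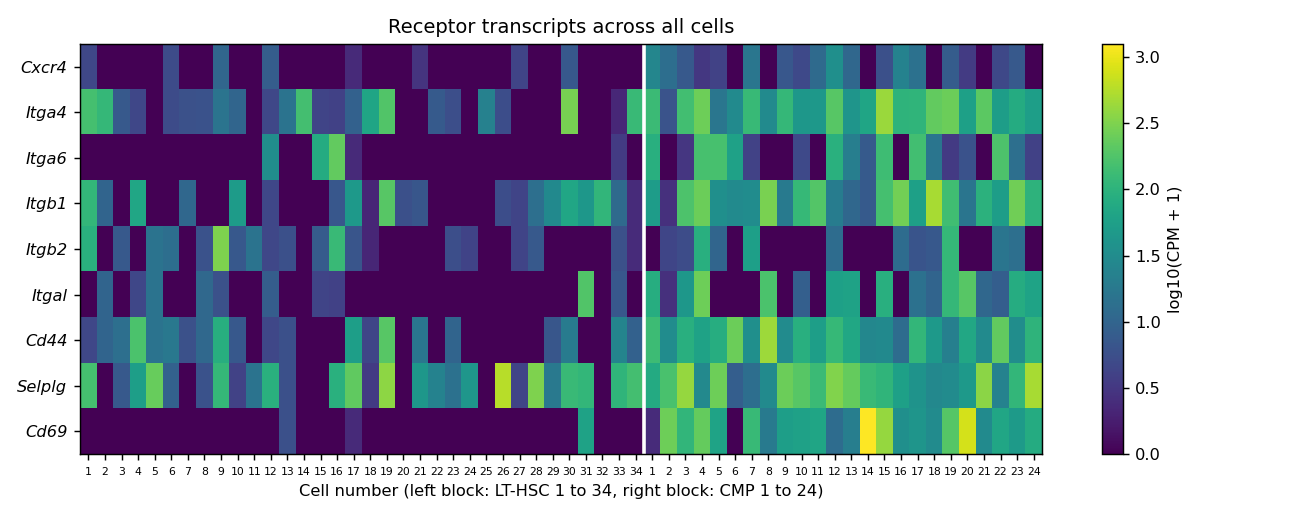
Receptor transcripts of all 58 cells as log10(CPM + 1), with genes in rows and cells in columns by their number, LT-HSC on the left and CMP on the right. Itgb2 is bright in LT-HSC 1, 9 and 16 and in CMP 4, 7 and 19, and Cd69 is brightest in CMP 14 and 20.

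Cd44 encodes the hyaluronan receptor (chromosome 2, 102811141 to 102901665, minus strand). Single LT-HSC ranged from 0 to 196 CPM (median 4.80), and single CMP from 11.3 to 439 (median 65.0). It was at 17.7 CPM in the LT-HSC pool (interval 15.2 to 20.5) and 86.8 in the CMP pool (interval 80.1 to 93.9), 4.89-fold more in CMP. All 24 CMP and 21 of 34 LT-HSC held a count, and 16 CMP and 5 LT-HSC held at least 10. The gates overlapped in their tails, with 3 LT-HSC above the median CMP. The log2 ratio of −2.29 was also −2.28 against CMP 1 and 2 alone. Hmmr, a further hyaluronan receptor gene named for its role, was at 7.05 CPM among LT-HSC and 49.7 among CMP. It is also a gene of mitosis.

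Selplg encodes PSGL-1, a ligand of selectins (chromosome 5, 113818536 to 113832644, minus strand). It differed least after Itgb2. Single LT-HSC ranged from 0 to 579 CPM (median 19.8), and single CMP from 7.40 to 496 (median 108). Pooled levels were 83.5 CPM among LT-HSC (interval 77.9 to 89.4) and 142 among CMP (interval 134 to 152), 1.71-fold higher in CMP (interval 1.55 to 1.87). At least 10 counts were held by 16 of 34 LT-HSC and 18 of 24 CMP, and 10 LT-HSC lay above the median CMP. With cells thinned, the log2 ratio moved from −0.77 to −1.11, past 2-fold.

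Cd69 encodes an early activation antigen of leukocytes (chromosome 6, 129267325 to 129275436, minus strand) and had the largest ratio of the 9 genes. Single LT-HSC ranged from 0 to 59.5 CPM with a median of 0, and single CMP from 0 to 1260 with a median of 60.3. Pooled, it was at 0.91 CPM among LT-HSC (interval 0.41 to 1.72, 9 counts) and 167 among CMP (interval 158 to 177, 1181 counts), 175-fold higher in CMP (interval 96.9 to 405). Of the 10937 genes with at least 20 counts, 1.06% had a lower log2 ratio. A count was present in 23 of 24 CMP and 3 of 34 LT-HSC, at least 10 counts in 15 CMP and 0 LT-HSC, and 12 CMP lay above every LT-HSC. Of the 9 counts in stem cells, 7 came from LT-HSC 31. Without it 2 remained, and the log2 ratio moved from −7.45 to −9.36 (interval −12.73 to −7.82). With cells thinned it was −6.20, which is 73.3-fold (interval 36.1 to 218), and by the mean over cells of their CPM −6.40. Within CMP the level was uneven: CMP 20 held 27.2% of the counts, CMP 14 was highest at 1260 CPM, CMP 6 had no count and CMP 1 had 1. S1pr1, the sphingosine 1-phosphate receptor that CD69 draws down, was at 5.94 CPM among LT-HSC and 8.92 among CMP, with a count in 3 and 8 cells, and 1 CMP held 50.8% of its CMP counts.

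Immediate early genes, which like Cd69 rise quickly on stimulation, differed in direction among themselves. Of 17 measured members, 7 passed 2-fold toward CMP (41.2%, against 28.1% of all genes), 2 toward LT-HSC (11.8%, against 22.7%) and 8 neither way, and the median log2 ratio was −0.85. Fosb stood at 25.3 CPM among LT-HSC and 151 among CMP, and Jun at 64.1 and 289, while Ier2 stood at 327 and 345. The summed list made up 11.3 of 10000 counts for the median LT-HSC (0.40 to 77.5) and 24.1 for the median CMP (1.80 to 85.1). With LT-HSC 1 to 16 alone the list's median was 0.27, and Cd69, with 1 count in these 16 cells, was at −8.57 (interval −14.46 to −6.67). With CMP 1 and 2 as the CMP pool the list's median was 3.24, higher in LT-HSC, while the log2 ratio of Cd69 was −6.97, with all but 1 of the CMP counts in CMP 2. The part of stimulation in the Cd69 level was not tested.

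The stem cells were not alike in these receptors. By cell number, a split that no label gives and that was taken from earlier results, Itgb2 was at 42.8 CPM in LT-HSC 1 to 16 (interval 36.2 to 50.3) and 2.15 in LT-HSC 17 to 34 (interval 1.17 to 3.60). LT-HSC 1, 9 and 16 held 26, 65 and 42 of the 146 Itgb2 counts of the first 16 cells, which stood at 5.04 CPM without these 3, and 12 of 16 cells against 8 of 18 had a count. Itga6 stood at 32.0 and 0.46 CPM in these cells, with 109 and 3 counts, and 3 of the first 16 cells held all 109. Selplg went the other way, at 47.8 and 102 CPM. Itgb1 stood at 21.4 CPM (interval 16.8 to 26.9) and 21.3 (interval 17.9 to 25.2), with overlapping intervals. Against CMP, the log2 ratio of Itgb2 was 1.20 with the first cells and −3.08 with the later ones, and that of Itga6 was −0.69 and −6.59 (interval −9.10 to −5.25). Without LT-HSC 1, 9 and 16 the first of these ratios of Itgb2 turned to −1.84 (interval −2.84 to −1.07). Without LT-HSC 16 that of Itga6 was −2.25 (interval −2.83 to −1.75), past 2-fold as with all cells. These leave-outs were chosen after the values were seen. Selplg passed 2-fold with LT-HSC 1 to 16, at −1.57. With CMP 1 and 2 as the CMP pool, Itgb2 had 2 CMP counts and was 8.33-fold higher in LT-HSC (interval 2.83 to 86.4).

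**Figure D3:**
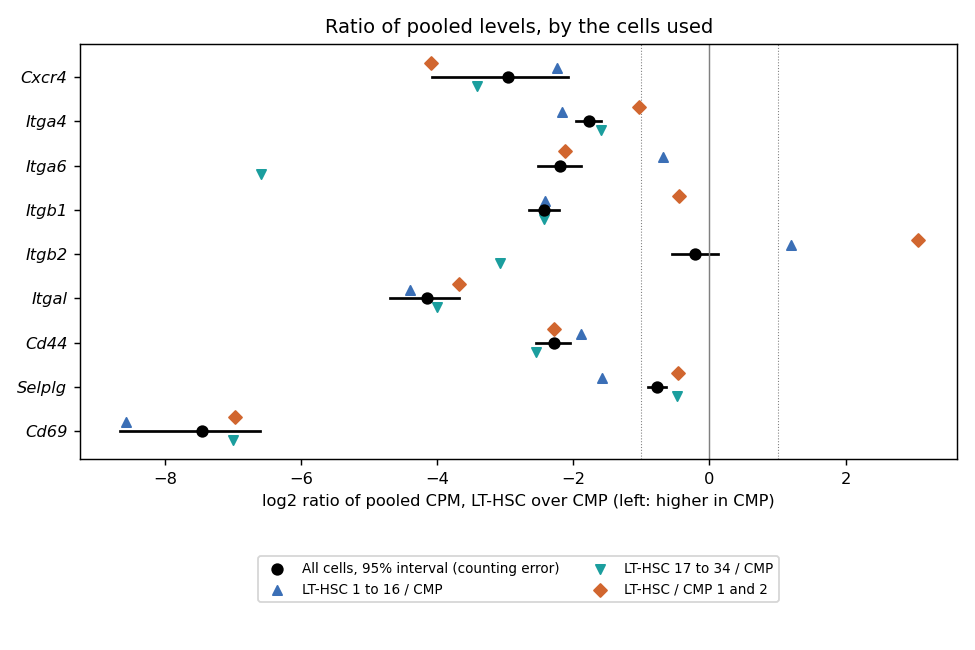
Log2 ratio of pooled CPM, LT-HSC over CMP, for each receptor gene; circles use all cells with the 95% counting interval, and other symbols use LT-HSC 1 to 16, LT-HSC 17 to 34 or CMP 1 and 2 only. Dotted lines mark 2-fold. Itgb2 changes side with the cells used, from −3.08 to 3.06.

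Other integrin chains were mostly scarce. Of 21 further integrin genes, 8 had no count in any cell and 7 had at least 20 counts. Of these 7, 4 passed 2-fold toward CMP (57.1%, against 28.1% of all genes) and 1 toward LT-HSC (14.3%, against 22.7%). The median log2 ratio was −1.42. Itga2b, the platelet integrin chain, was at 49.3 CPM among LT-HSC and 66.8 among CMP, and Itgav, the alpha V chain, at 4.13 and 13.3. In Itga5, Itgam, Itgb3, Itgb5 and Itgb7 a single cell held more than 50% of the counts of the higher pool. The list's median was −0.48 without CMP 15 and −0.74 without CMP 19.

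Genes that couple integrins to the cytoskeleton lay mostly within 2-fold. Of 28 with at least 20 counts, 20 did so. Toward CMP 5 passed 2-fold (17.9%, against 28.1% of all genes) and toward LT-HSC 3 (10.7%, against 22.7%). The median log2 ratio was −0.15. Tln1, the talin that activates integrins, stood at 241 and 240 CPM, and Fermt3, kindlin-3, at 181 and 198. Rap1b, a small GTPase upstream of talin, was higher in CMP, at 62.6 CPM among LT-HSC and 257 among CMP, as was Lims1, an adaptor of focal adhesions, at 16.6 and 143. Ptk2b, a focal adhesion kinase relative, was higher in LT-HSC, at 69.3 and 24.5 CPM, and Pxn, paxillin, at 36.4 and 15.3.

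Signalling genes downstream of chemokine receptors were also mostly within 2-fold. Of 39, 26 did not pass 2-fold, 10 passed 2-fold toward CMP and 3 toward LT-HSC, and the median was −0.51. The share toward CMP, 25.6%, was near the 28.1% of all genes, and that toward LT-HSC was 7.69%, against 22.7%. Gnai2, the inhibitory G protein subunit that CXCR4 uses, was at 185 CPM among LT-HSC and 416 among CMP, and Rac2, the GTPase of blood cell migration, at 498 and 508. Dock8, a guanine nucleotide exchange factor, stood at 34.1 and 109 CPM and Pak2, a kinase under Rac, at 44.8 and 134.

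Other chemoattractant receptors and their ligands, taken as 1 list, went both ways. Of 17 genes with at least 20 counts, 7 passed 2-fold toward CMP (41.2%, against 28.1% of all genes) and 5 toward LT-HSC (29.4%, against 22.7%). The median was −0.59 and moved to 0.044 without CMP 2 and to 0.0074 without CMP 17. The 17 included the ligand gene Mif, at 2432 CPM among LT-HSC and 2081 among CMP. P2ry14, a receptor for UDP-glucose, was at 48.0 CPM among LT-HSC and 5.24 among CMP, S1pr4, a sphingosine 1-phosphate receptor, at 98.9 and 24.6, and Lpar6, a lysophosphatidic acid receptor, at 86.4 and 12.6. Ackr3, which also binds CXCL12, and Cxcl12 itself had no count. Eno1, a glycolysis gene that every cell uses, is also listed at 0 throughout, so a 0 in all cells does not show absence.

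Genes that build selectin ligands showed no common direction, with 6 of 19 past 2-fold toward CMP, 5 toward LT-HSC and a median of 0.059. These shares, 31.6% and 26.3%, were near the 28.1% and 22.7% of all genes. Fut7, the fucosyltransferase that PSGL-1 needs to bind selectins, was at 20.2 CPM among LT-HSC and 18.7 among CMP. Tpst2, which sulfates tyrosines such as those of PSGL-1, stood higher among LT-HSC, at 126 against 34.3 CPM, as did the GDP-fucose transporter gene Slc35c1, at 32.3 against 8.92.

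A list of other adhesion molecules was more often higher in LT-HSC. It also held cytoskeletal linkers such as Ezr and receptors such as Robo4 and Tie1. Of 28, 13 passed 2-fold toward LT-HSC (46.4%, against 22.7% of all genes) and 7 toward CMP (25.0%, against 28.1%), with a median of 0.95. Jam3, a junctional adhesion molecule, had 217 counts in LT-HSC (21.9 CPM) and 2 in CMP, a log2 ratio of 5.95 (interval 4.40 to 9.32). Robo4, a Slit receptor of stem cells and endothelium, had 213 and 4 counts, and F11r, another junctional adhesion molecule, stood at 27.4 and 3.11 CPM. Cd63, a tetraspanin, stood at 601 and 168 CPM. Of the 7 toward CMP, Cd53 was at 63.6 CPM among LT-HSC and 166 among CMP, and Cd93 at 41.2 and 123. The 13 toward LT-HSC included the stem cell marker Esam and the endothelial or stromal markers Emcn and Tie1. Emcn was at 42.2 CPM among LT-HSC and 12.2 among CMP, and Tie1 at 12.5 and 1.42. Of the endothelial or stromal markers, Cdh5 and Cxcl12 were at 0. The only other such marker with at least 20 counts, Col1a2, had 133 counts in LT-HSC and 42 in CMP, all from 1 cell of each gate. The part of such cells in the result was not tested.

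**Figure D4:**
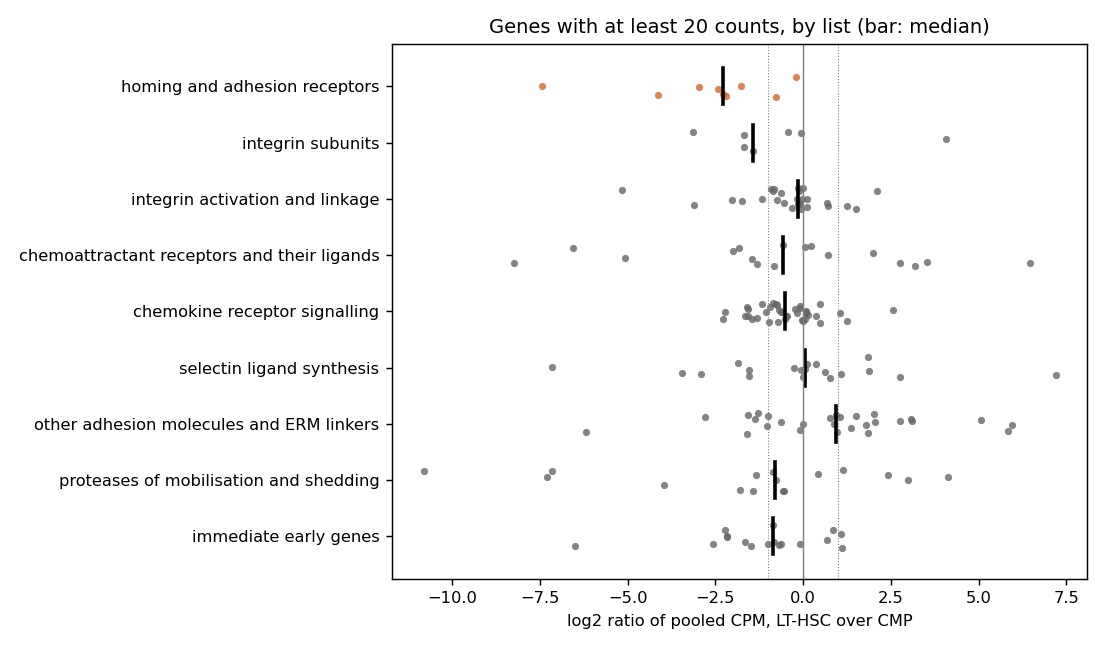
Log2 ratio of pooled CPM, LT-HSC over CMP, for genes with at least 20 counts; each point is 1 gene, each bar a list's median, dotted lines mark 2-fold. Genes without a count in 1 pool are placed by the added count of 0.5 and are no bound. The 9 receptors have a median of −2.29 and the list of other adhesion molecules and linkers 0.95.

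Proteases and related genes of mobilisation went both ways. Of 16, 7 passed 2-fold toward CMP (43.8%, against 28.1% of all genes) and 4 toward LT-HSC (25.0%, against 22.7%), with a median of −0.81. Elane and Ctsg, proteases of neutrophil granules that can cleave CXCR4 and VCAM-1, stood at 634 and 1108 CPM among CMP and at 0.30 and 7.65 among LT-HSC. Plaur, the urokinase receptor, was at 21.2 CPM among CMP and 1.31 among LT-HSC. Srgn, a granule proteoglycan, was at 2045 CPM among LT-HSC and 1510 among CMP.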

How the data were processed

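Single bone marrow cells were sorted, and RNA was reverse transcribed with a primer carrying a cell barcode and a molecular identifier, pooled, and captured at its 3' ends, per the labels' protocols. The submitters' processing notes name mm10, TopHat2 2.0.12, HTSeq and Seurat 2.0. The authors deposited whole-number counts per gene symbol and cell. Whether these are molecules or reads was not given in the sources used here. Intervals cover counting error only, and if the counts are reads they are too narrow even for that. All 58 cells were used. No cell was filtered, and doublets were not called since cells were picked singly. Counts were summed per gate. The log2 ratio used 0.5 added to each count, with an exact conditional binomial 95% interval (Python 3.11.15, scipy 1.17.1). It was tested on simulated Poisson counts of the pools only. These hold no spread between cells, so the test does not show how well the interval covers in these data. With cells of a gate not being replicates, p-values were not computed. Positions are from GENCODE M21 on mm10.

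The receptor genes and lists were chosen with earlier results of these data known. Beside the receptors, each list gave up to 4 genes with at least 50 counts by size of ratio, no cell holding over 50% of the higher pool, and the 2 with the highest level. Some of these are not reported here. Cerkl, Hmmr, S1pr1, Itgb7, Itgam, Itgax, Itgad, Itgb3, Itgb5, Eno1, Xist, Fut7, Tln1, Fermt3, Gnai2, Rac2, Ackr3, Cxcl12 and Cdh5 were named outside this rule, after values were seen. So were Cd53, Cd93, Esam and Ezr. For each receptor the 3 genes most like it over cells were found by Pearson r of log2(CPM + 10) after taking off gate means, among 4839 genes with a count in at least 29 cells. For thinning, cells were drawn down to 97978 counts, the 10th percentile of totals, leaving out 4 LT-HSC and 2 CMP. Other alternatives were averaging CPM over cells, scaling by median of ratios, totals less ribosomal genes, leaving out shallow cells or each cell, and other minimum and added counts.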

Additional observations from a re-analysis of the deposited data

How the results depend on the processing

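No paired analysis was possible because the numbers in the titles name cells, not animals, and no test was made. Of the 9 receptors, 7 were at least 2-fold higher in CMP under 7 of the 10 alternatives, 8 with thinning and with LT-HSC 17 to 34 only, and 6 with CMP 1 and 2 only. The count was 7 with any 1 cell left out. The count of receptors higher in LT-HSC was 0 with 2 exceptions. It was 1, Itgb2, with LT-HSC 1 to 16 only (against 22.7% of all genes) and with CMP 1 and 2 only (against 46.2%). The other 99 counts and medians kept within 1.5-fold. Median-of-ratios scaling raised all log2 ratios by 0.13, and CMP 1 and 2 only put the median of all genes at 0.70. With those 2 cells the list medians were 3.20 for integrin subunits, which turned sign, and 0.60 for chemoattractant receptors and ligands. They were 0.23 for chemokine signalling, 1.10 for selectin ligand synthesis and 2.89 for other adhesion molecules. For immediate early genes the median was 3.24 and for proteases 0.93. With LT-HSC 1 to 16 only the medians were −1.19 for selectin ligand synthesis, 0.27 for immediate early genes and −1.99 for proteases. With LT-HSC 17 to 34 only they were −2.24 for integrin subunits and −2.42 for immediate early genes. Integrin subunits had −0.53 by averaging CPM over cells. Chemoattractant receptors and ligands had 0.078 with CMP 3 to 24 only and 0.052 with a minimum of 100 counts. The cause was not tested. Leaving out each cell in turn gave medians of −1.58 to −0.48 for integrin subunits and −0.82 to 0.044 for chemoattractant receptors and ligands. Cxcr4 had few counts, 11 and 63. Over the alternatives its log2 ratio ranged from −4.10 with CMP 1 and 2 only to −1.61 with thinning.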

Other observations

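Selplg was the receptor gene with the highest correlation to the myeloid progenitor markers among CMP, where the other 8 had r of −0.20 to 0.26. Over 24 CMP, Pearson r of log2(CPM + 10) was 0.57 between Selplg and the summed myeloid progenitor markers (Spearman rho 0.47) and −0.54 between Selplg and the summed megakaryocyte markers (rho −0.40). Without the 2 cells farthest from the median of the markers these were 0.31 and −0.31, so that both rest in part on 2 cells. Over 34 LT-HSC they were 0.10 and −0.17. Itga4 and the summed stem cell markers had r 0.50 (rho 0.44) over 24 CMP and 0.34 over CMP 3 to 24. Cd69 and Cd44 had r −0.47 (rho −0.46) over 24 CMP and −0.42 over CMP 3 to 24. Cxcr4 and the summed immediate early genes had r −0.64 (rho −0.74), and −0.14 (rho −0.23) over 22 CMP thinned to 97978 counts. These values were picked after they were seen from 90 relations to lists or depth and 72 between receptors, as were the checks on them, and which animals and library pools the cells share was not given in the sources used here.

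With 10 added to CPM, the genes most like each receptor over 58 cells had r of at most 0.58 among 4839 genes, which in sparse counts is weak. With 50 added the highest was 0.66, for Cbwd1 with Cd44. Rab27a, a GTPase of granule release, had r 0.56 with Itgb2, and 0.64 with 50 added to CPM in place of 10. In each gate 3 cells held most of the Itgb2 counts, 83.1% in LT-HSC and 82.6% in CMP. The gene closest to Itgb2 appears in the table under a date, a symbol altered by a spreadsheet, and is not named here. Mtfr1 and Cbwd1 each had r 0.56 with Cd44, Aqp1, a water channel, had 0.54 with Cxcr4, and Trim44 had 0.54 with Itga6. Trmt2a had 0.52 with Itga4, Nsd1 0.48 with Itgb1, Zc3h13 0.54 with Itgal, Igfbp4 0.45 with Selplg and Elf2 0.47 with Cd69. With 50 added, 17 of the 27 closest genes were again among the 3 closest, and the closest gene was the same for 3 of 9 receptors. Trmt2a then left the 3 closest to Itga4, and Igfbp4 those to Selplg.

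Cells low in 1 receptor were not always low in the others. LT-HSC 19, among the shallowest cells at 56114 counts, held at least 10 counts of 4 receptors, and its receptor sum of 9.45 of 10000 counts was the highest of the 34 LT-HSC. LT-HSC 31 held the most Cd69 and Itgal counts of the LT-HSC, at 7 and 21, and had no count of Cxcr4, Itga4, Itga6, Itgb2 or Cd44. CMP 4 held at least 10 counts of 8 of the 9 receptors, all but Cxcr4, of which it had 1.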
